A study of Mus musculus with 46 samples.

Results

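The transient wave genes described here are the 150 genes that stood highest above both ends of the time course when mouse embryonic fibroblasts were reprogrammed with Oct4 and NanogBiD. NanogBiD (NanogN70 in the sample labels) is mouse Nanog whose N-terminus carries the first 70 residues of SS18, the stretch by which this BAF subunit binds the chromatin remodeller BRG1. The level of a gene was taken as log2(FPKM + 1), where FPKM is fragments scaled by gene model length and by all fragments mapped in the library. A gene's wave score was its mean level over the D3, D5 and D7 libraries of NanogBiD minus the larger of its mean levels at D0 and D12. Nanog, Pou5f1 (the gene of Oct4), Ss18, Clu, Iapp, U90926 and Aqp8 were left out, and the 150 highest scores of 37108 genes in the table were kept. Because these values chose the members, the NanogBiD wave itself is given as a description without a test. The same holds for differences between NanogBiD and NanogWT at D0, D3, D5, D7 and D12. The question put to the data was whether native Nanog, in libraries that the choice did not use, showed the same wave.

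All reprogramming cells were OG2 MEF, fibroblasts of embryonic day 13.5 from OG2 males and 129 females that carry an Oct4-GFP reporter, and all received Oct4 and 1 form of Nanog from pMXs retroviral vectors. The comparison group received Oct4 with native Nanog (NanogWT). D0 followed 2 rounds of infection of 24 h each, iCD3 medium was used from D0, and the medium was changed to N2B27 with 2i and LIF (2iL) after about 7 days, so D8, D10 and D12 were sampled in another medium than D1 to D7. The 8 days sampled (D0 and D1, D3, D5 and D7, then D8, D10 and D12) had 2 replicates per combination, except NanogBiD at D8 with 1 (31 libraries). The other libraries were 2 of MEF, 1 of OG2-mES (mES, embryonic stem cells) and 12 of iPSC, 6 per combination from lines named iPSC1 and iPSC2. Of the NanogWT iPSC libraries 2 carry the same clone number (1# and 1#-2), so that the 6 may hold 5 clones. The column headers mark iPSC1 and iPSC2, and also 1# and 1#-2, with different p numbers, read here as passages. Line and passage therefore cannot be told apart. Cells with the vectors but neither factor, or with Oct4 alone, were not analysed here, so what both combinations share (Oct4, infection, medium) cannot be told apart from an effect of Nanog. The labels do not say whether replicates came from separate cultures, so p-values measure only the spread between these samples, which may be technical.

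Fibroblasts that are made pluripotent first lose their own programme and later switch on the network of pluripotency genes. Between these steps, cells can pass through intermediate states in which genes of other lineages are transcribed for a time. Oct4 binds the octamer sequence, and Nanog is a homeodomain factor of the same network. In bulk RNA, fewer cells of a type and less RNA per cell cannot be told apart.

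The absolute number of reads is not in the table, so precision was judged from the replicates and from relative depth, found from the steps between low values. Relative depth was 0.998 to 1.1 in NanogBiD D0 to D7 (10 libraries), 0.814 to 1.02 in NanogBiD D8 to D12 (5), 0.875 to 1.06 in NanogWT D0 to D7 (10) and 1.86 to 3.19 in NanogWT D8 to D12 (6). The late NanogWT libraries were thus the deepest, and depth, medium and day cannot be told apart in comparisons that use them. Replicate levels of the 150 members correlated across genes at Pearson r = 0.895 (NanogWT D0) to 0.99 (NanogWT D10) over 15 pairs.

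The 150 rows of the table were 143 distinct genes. Of the 7 second rows, 6 carry an older or newer symbol of the same gene in RefSeq (Nov and Ccn3, Alkal2 and Fam150b, Tcim and 1810011O10Rik, Rtl4 and Zcchc16, Tafa4 and Fam19a4, Fam84a and Lratd1), and BC089491 and Selenov differed by at most 0.056 in any library on the log2 scale. Of the distinct genes 135 are protein-coding, 7 are lncRNA and 1 has another biotype in RefSeq (GRCm38.p6). All 150 passed the filter on low values (2 or more libraries of the time course at 1 FPKM or above), and 146 would have passed it on the NanogWT libraries alone. Gm34312, 1700024G13Rik, Cpne4 and Prss12 passed through NanogBiD only. Whether reads were counted by strand is not stated, and 23 distinct members overlap another tested gene, so their values are uncertain.

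With NanogBiD most members came up from a low level. Their median level was 0.584 and 0.553 log2(FPKM + 1) in the D0 libraries, 2.59 and 2.14 at D1, 4.38 and 4.36 at D5, 2.78 in the single D8 library and 1.03 and 1.25 at D12. In the D0 libraries, 61 and 55 of the 150 were at 1 FPKM or above, and 21 were listed at 0 in both. MEF stood at 0.387 and 0.381 and mES at 0.149, and 89 members stayed under 1 FPKM in MEF and mES alike. Most members were thus low at the start of the course and in both reference cell types. The highest mean fell at D5 for 84 members, at D3 for 40, at D7 for 18 and at D1 for 8.

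**Figure D1:**
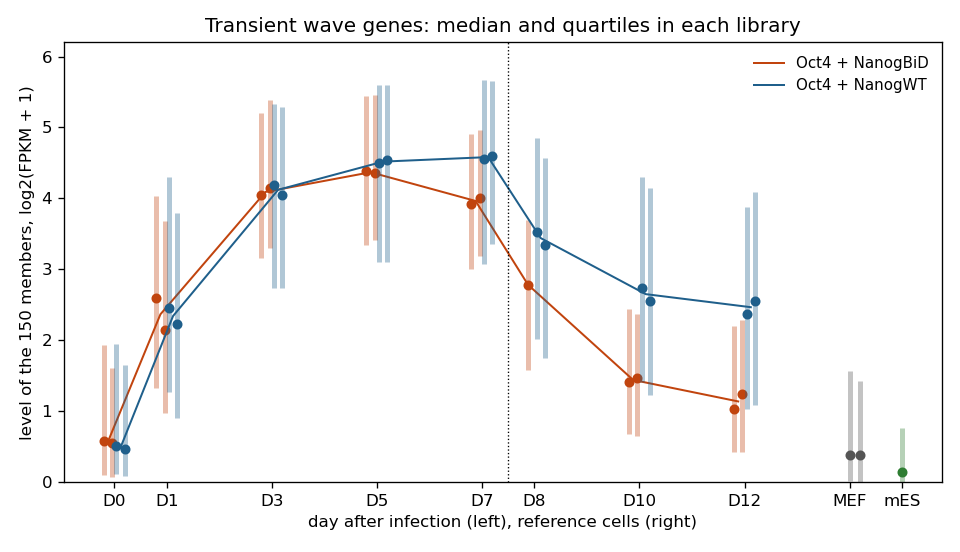
Median (points) and quartiles (bars) of the level of the 150 members, in log2(FPKM + 1), in each time-course, MEF and mES library; lines join the mean of the libraries of a day and the dotted line marks the change of medium. The medians lie between 3.93 and 4.61 at D3 to D7 in both combinations, and at D10 the NanogBiD medians are 1.42 and 1.46 against 2.74 and 2.56 with NanogWT.

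The scores ran from 6.22 to 2.00 (median 2.47). The members just inside the limit were Isg15 (2.00), Tmc3 (1.997) and Tmem260 (1.995), and the genes just outside it were Sybu (1.988), Gm29863 (1.983) and Pcbd1 (1.981), so the border follows no gap. Of 150 genes chosen from replicate 1 alone, 130 were members, and their median score in replicate 2 was 2.43, with 147 at 1 or more and 1 at 0 or less.

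The member with the highest score, Fgl2, encodes a secreted fibrinogen-like protein with immune regulatory and prothrombinase activity (chromosome 5, 21372673 to 21378386). With NanogBiD it stood at 1.21 and 0.895 FPKM at D0, 254 and 235 at D5 and 0.889 and 1.84 at D12. With NanogWT it stood at 1.31 and 0.856 FPKM at D0, 97.9 and 77.0 at D5 and 10.9 and 8.70 at D12. With NanogWT, too, Fgl2 rose, by 5.06 on the log2 scale (SE 0.26, adjusted p = 7.44e-12, limma), and its later fall of 2.69 (SE 0.26, adjusted p = 1.06e-07) left it above D0.

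Promoters were read for what the members share beyond the score. RefSeq promoter windows of 300 bases (250 before to 50 after an annotated transcription start, GRCm38.p6) were matched for 102 of the 143 distinct members, of which 17 had more than 1 window. The start of a window need not be the outermost start of the gene. The octamer ATGCAAAT, on either strand, was found in 10 of the 102 (9.8%), against 1.97% of 27025 genes with a window and 1.83% of the 11953 tested genes with one. Of the 150 genes next in score, 99 had a window and 4 (4.04%) held it. With windows within 50 bases of the gene's outermost start alone, counted after the values were seen, it was in 7 of 79 members (8.86%), against 1.87% of 21981 genes and 1.72% of the tested ones. The other motifs searched, each on both strands, were AP-1 TGANTCA (9.8% of members, 8.97% of all genes), Sox CATTGT (13.7% and 14.3%), TCF CTTTGAT (2.94% and 4.29%), TEAD GGAATG (15.7% and 16.6%), CRE TGACGTCA (0% and 2.03%), E-box CACGTG (10.8% and 8.09%), CCAAT (35.3% and 41.1%), TATAAA (23.5% and 15.7%) and GGGCGG (51% and 38.2%). Shares for the tested genes alone differed most for GGGCGG (65.9%) and TATAAA (9.38%). A match describes letters in a window, not a bound site. The 10 octamer members are shown 5′ to 3′ along the gene's strand, with 30 bases on either side and the octamer or its reverse complement in capitals, because Oct4 was the factor common to both combinations.
Fgl2 (chr5:21372587-21372654, + strand): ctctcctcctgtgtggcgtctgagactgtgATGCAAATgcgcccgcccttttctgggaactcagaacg
Gm5965 (chr16:88777663-88777730, + strand): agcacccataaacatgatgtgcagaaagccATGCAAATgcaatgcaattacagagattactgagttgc
Rgs4 (chr1:169747762-169747829, - strand): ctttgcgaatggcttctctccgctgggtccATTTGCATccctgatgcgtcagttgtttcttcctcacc
Sprr2f (chr3:92365045-92365112, + strand): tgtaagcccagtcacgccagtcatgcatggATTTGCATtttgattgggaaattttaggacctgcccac
Prrg4 (chr2:104849956-104850023, - strand): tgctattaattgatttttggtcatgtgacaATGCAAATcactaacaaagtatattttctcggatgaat
Slc7a11 (chr3:50443625-50443692, - strand): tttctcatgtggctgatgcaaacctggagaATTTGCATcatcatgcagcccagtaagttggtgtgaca
Pim2 (chrX:7878074-7878220, + strand): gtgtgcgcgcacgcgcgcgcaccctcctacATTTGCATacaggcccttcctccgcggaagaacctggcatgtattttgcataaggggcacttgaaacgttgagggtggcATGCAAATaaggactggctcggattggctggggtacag
Aldh1a2 (chr9:71215675-71215742, + strand): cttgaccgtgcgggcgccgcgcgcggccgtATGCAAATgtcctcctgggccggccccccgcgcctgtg
Col25a1 (chr3:130180648-130180715, + strand): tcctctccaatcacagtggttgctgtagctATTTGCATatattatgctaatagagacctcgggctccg
Il33 (chr19:29945673-29945740, + strand): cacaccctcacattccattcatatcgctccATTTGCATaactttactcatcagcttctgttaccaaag
The octamer lies 56 bases before the start of Fgl2. In Slc7a11 (the cystine transporter) and Il33 (an alarmin cytokine) it lies 49 and 87 bases before internal starts, 55474 and 20677 bases inside the gene, and the windows of Col25a1 and Prrg4 start 487 and 22 bases inside it. The other 6 windows lie at the outermost start. Pim2, a kinase gene that cytokine signals induce, holds it at 202 and 123 bases before its start. Under NanogWT, Pim2 went from 2.75 and 2.23 FPKM at D0 to 74.4 and 101 at D5, and it rose by 4.71 on the log2 scale (SE 0.18, adjusted p = 1.46e-13). Slc7a11 rose by 3.02 (SE 0.22, adjusted p = 8.41e-10).

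Nearly all of these genes rose with native Nanog as well. Averaged over D3, D5 and D7, 142 of 150 members were higher than at D0 with NanogWT (94.7%; 135 of the 143 distinct genes), against 1770 of 16842 tested genes (10.5%). The median difference was 3.08 on the log2 scale over the members and 0.11 over all genes tested. Called means an adjusted p under 0.05 in limma and a log2 difference of at least 1, with Benjamini-Hochberg adjustment over all tested genes. In 146 members each of the 6 NanogWT libraries of D3 to D7 lay above both at D0, as in 29.3% of tested genes. No member was called lower (5.36% of tested genes were).

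The return was less complete. The mean of D3, D5 and D7 was called above D12 for 101 members with NanogWT (67.3%; 96 distinct genes), against 4.01% of tested genes, and all 101 were among the risen. The full wave was therefore called in 101 of 150 members and in 535 tested genes (3.18%). The other 41 risen members were not called as falling. D12 lay above D0 in 91 members (60.7%, against 12.2% of tested genes, a contrast chosen after the data were seen), among them 51 of the 101 with a called wave and 39 of the 41 without a called fall. Measured against D10 the fall was called in 89 members and in 685 of the 16842 tested genes. Against D8 it was called in 60 members and in 469 tested genes. As scores by the same formula, the NanogWT values had a median of 1.44 (range -1.15 to 5.54) over the members and -0.20 over tested genes. Of the members, 101 scored 1 or more with NanogWT (3.22% of tested genes did), 17 scored below 0 and 23 scored higher than with NanogBiD. The 150 highest NanogWT scores held 60 members, which is 40.0% of each list.

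**Figure D2:**
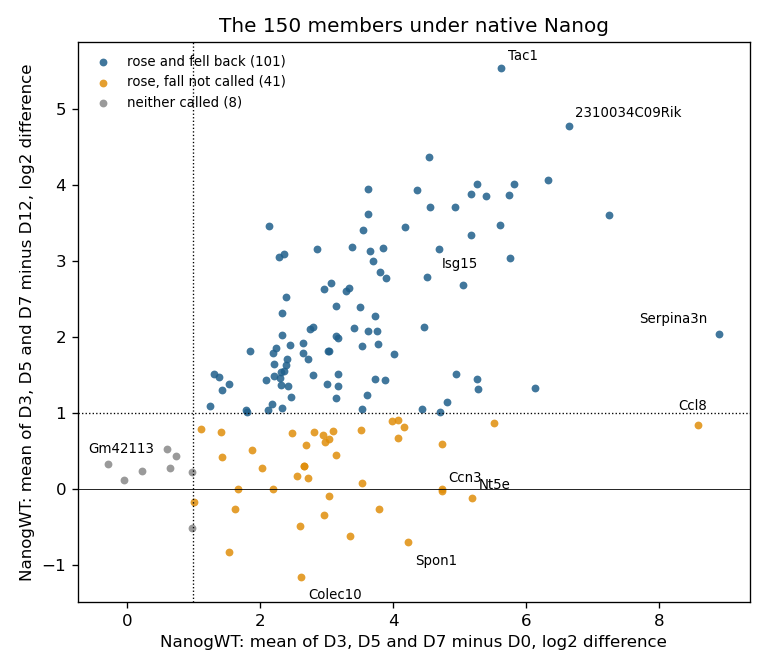
Each point is a member under native Nanog, with the log2 difference between the mean of D3, D5 and D7 and D0 on the x axis and that between the same mean and D12 on the y axis; dotted lines mark a difference of 1 and colours the calls. The 101 members with a called wave fill the upper right, and the 41 that rose without a called fall lie lower on the y axis, down to Colec10 at -1.15.

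The peak days are a description. The highest NanogWT mean fell at D7 for 71 members, D5 for 32, D3 for 19 and D8 for 18, and it fell at D7 or later for 96. At D8, the first day in 2iL, the median member stood 1.69 above its D0 level with NanogBiD (1 library) and 2.23 with NanogWT (2 libraries). At D10, 40 members were still at least 1 above D0 with NanogBiD and 102 with NanogWT. At D1 the numbers were 94 and 87. The D0 level with NanogBiD is part of the rule, and these counts were not made over all genes.

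Neuropeptide genes were among the members with the highest scores. Cck encodes cholecystokinin, Tac1 substance P and neurokinin A, and Npy neuropeptide Y, all of them secreted signals of neurons and gut endocrine cells. Tac1 had the highest NanogWT score of all members. With NanogWT it stood at 0.315 and 0.169 FPKM at D0, 71.2 and 23.2 at D1, 111 and 90.9 at D3, 30.3 and 41.3 at D7 and 0.701 and 1.27 at D8. With NanogBiD it stood at 0.328 and 0.408 at D0, 70.8 and 78.1 at D3 and 0.806 at D8. In both combinations, Tac1 was highest at D3 and already fell while cells were in iCD3, to 10.8 and 18.3 FPKM at D7 with NanogBiD. It was near its D0 level 1 day after the change of medium. Its NanogWT rise was 5.63 (SE 0.30, adjusted p = 1.01e-11) and its fall 5.54 (SE 0.30, adjusted p = 4.39e-11).

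Npy and Cck had the wave in both combinations. Their higher NanogBiD levels at D3 and D5 are part of the rule that chose them. Npy was at 223 and 204 FPKM at D5 with NanogBiD and at 38.4 and 52.5 with NanogWT, from 1.07 or less at D0 in all 4 libraries. Cck was at 484 and 160 FPKM at D3 with NanogBiD, a wide spread, and at 84.1 and 67.1 with NanogWT. Under NanogWT, Npy rose by 4.56 (SE 0.30, adjusted p = 2.20e-10) and Cck by 2.36 (SE 0.42, adjusted p = 0.000114). Of 38 peptide hormone and neuropeptide genes listed, 22 were tested. With NanogWT 9 of these were called higher at D3 to D7 than at D0 and 4 lower (10.5% and 5.36% of tested genes). Of the 22, 6 were called above D12 at D3 to D7 and 8 below it (4.01% and 7.29% of tested genes), and 6 had the wave, against 3.18% of tested genes (Cck, Tac1, Npy and also Gal, Nts and Iapp, which are no members). The list's median rise was 0.63, against 0.11 over all genes, and its median fall 0.10, against -0.06. Npy1r, a receptor of neuropeptide Y picked here after its values were seen, is a member too and rose by 3.53 and fell back by 1.87 with NanogWT.

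The named members included genes of receptors and a channel. Prokr1, a receptor for prokineticins, was at 0.159 and 0.104 FPKM at D0 and 105 and 89.8 at D5 with NanogWT, and at 70.2 and 88.1 at D5 with NanogBiD. Its rise under NanogWT was 6.32 (SE 0.21, adjusted p = 1.69e-14). The receptor gene Gpr151 was at 78.8 and 71.8 FPKM at D5 with NanogBiD and at 15.4 and 14.1 with NanogWT, where it rose by 3.73 (SE 0.17, adjusted p = 1.46e-12). Kcnj5, an inward rectifier potassium channel subunit, was at 0 in all 4 D0 libraries and reached 49.4 and 47.2 FPKM at D5 with NanogWT and 19.1 and 28.6 with NanogBiD. Ramp3, which directs calcitonin-family receptors to the cell surface, was at 104 and 114 FPKM at D5 with NanogWT and at 23.0 and 21.1 with NanogBiD. The neuronal pentraxin gene Nptx2 was at 145 and 167 FPKM at D5 with NanogWT and at 110 and 120 with NanogBiD. Each of these 5 rose and fell back with NanogWT. None is in the list of 24 neural and synaptic genes, which holds no member. With NanogWT 7 of those 24 rose and 1 fell between D0 and D3 to D7, 12 stood higher at D12 than at D3 to D7 and 1, Gap43, had the wave, and the list's median fall was -1.0.

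**Figure D3:**
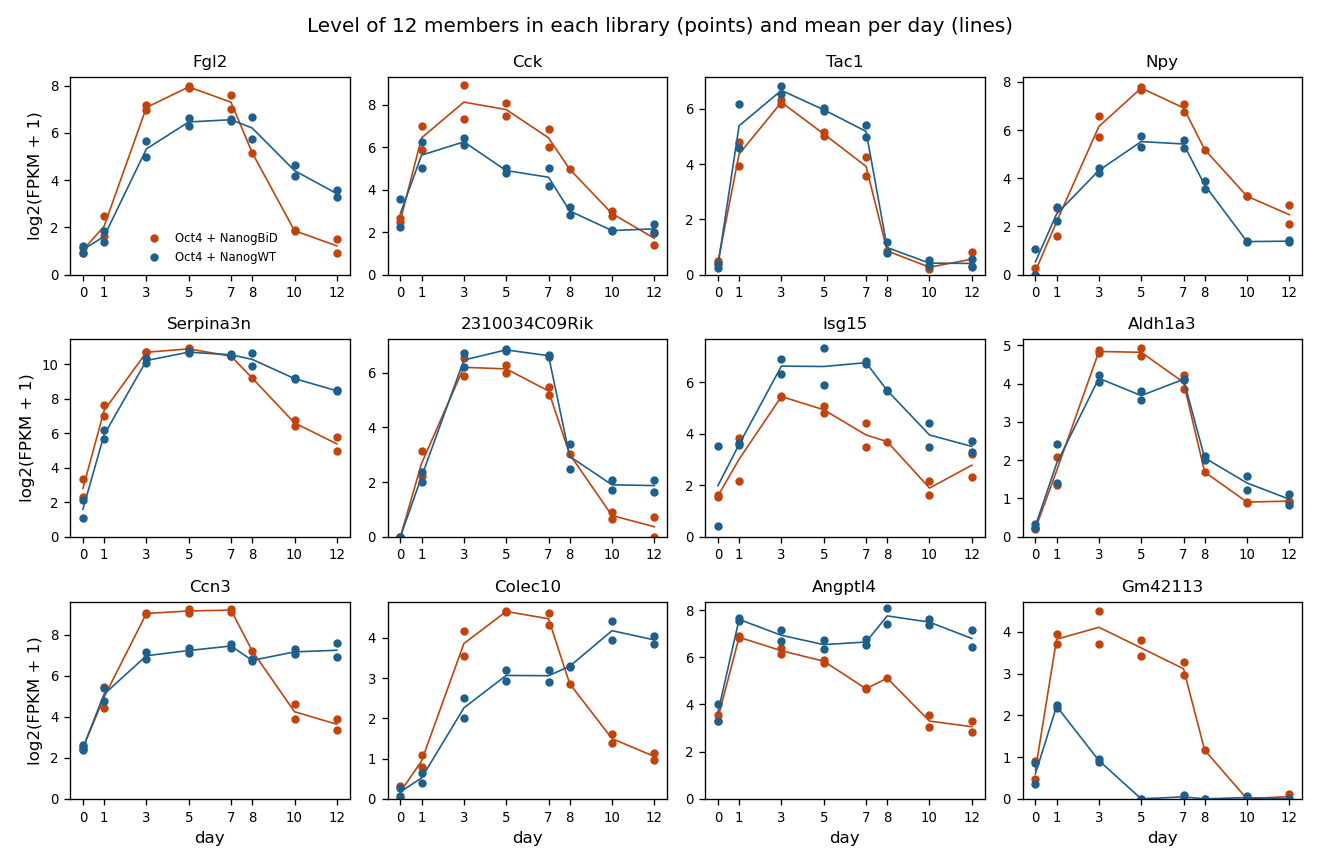
Level in log2(FPKM + 1) of 12 members by day, with a point per library and a line through the mean of each day for Oct4 with NanogBiD and with NanogWT. The wave of Tac1, Npy and 2310034C09Rik is seen in both combinations, Ccn3, Colec10 and Angptl4 stay high at D12 with NanogWT, and Gm42113 lies higher with NanogBiD in every library from D3 to D7.

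Some members lay near each other in the genome. Of the 143 distinct members, 18 had another within 200 kb, in 6 groups. The same count was not made for other sets of genes, so whether 18 stands out is not known. A stretch of chromosome 16 (88750744 to 88778546) holds 4 members of the keratin-associated protein family, whose products cross-link keratins in hair: Krtap13, 2310034C09Rik, 2310057N15Rik and Gm5965. All 4 had the wave with NanogWT. 2310034C09Rik was listed at 0 in all 4 D0 libraries, MEF and mES. It reached 110 and 116 FPKM at D5 with NanogWT and 63.2 and 76.5 with NanogBiD, and it fell to 9.54 and 4.57 at D8 with NanogWT. Its rise under NanogWT was 6.64 (SE 0.26, adjusted p = 1.66e-13). Gm5965 rose by 7.25 (SE 0.24, adjusted p = 2.15e-14), to 168 and 205 FPKM at D5. The 250 bases before the start of the 4 genes are shown because they resemble each other, with TATAAA in capitals.
Krtap13 (chr16:88751629-88751878, - strand): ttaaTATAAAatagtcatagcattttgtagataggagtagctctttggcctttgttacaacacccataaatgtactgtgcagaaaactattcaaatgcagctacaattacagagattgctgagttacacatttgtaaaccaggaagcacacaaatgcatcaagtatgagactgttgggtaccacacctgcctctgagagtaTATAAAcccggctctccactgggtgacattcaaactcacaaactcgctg
2310034C09Rik (chr16:88758597-88758846, + strand): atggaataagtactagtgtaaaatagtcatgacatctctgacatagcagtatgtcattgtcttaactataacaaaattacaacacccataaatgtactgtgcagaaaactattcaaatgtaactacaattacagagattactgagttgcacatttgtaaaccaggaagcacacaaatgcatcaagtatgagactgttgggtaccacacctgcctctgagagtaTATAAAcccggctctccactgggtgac
2310057N15Rik (chr16:88774207-88774456, - strand): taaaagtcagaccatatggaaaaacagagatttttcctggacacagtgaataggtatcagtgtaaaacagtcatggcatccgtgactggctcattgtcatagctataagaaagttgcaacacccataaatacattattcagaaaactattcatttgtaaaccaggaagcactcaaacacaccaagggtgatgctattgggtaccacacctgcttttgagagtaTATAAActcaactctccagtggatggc
Gm5965 (chr16:88777607-88777856, + strand): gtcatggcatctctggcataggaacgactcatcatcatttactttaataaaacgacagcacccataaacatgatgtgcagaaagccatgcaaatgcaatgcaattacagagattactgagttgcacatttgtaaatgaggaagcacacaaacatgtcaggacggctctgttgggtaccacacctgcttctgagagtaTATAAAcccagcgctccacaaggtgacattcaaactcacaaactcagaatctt
The 300-base windows of Krtap13 and 2310034C09Rik share an identical run of 150 bases, and the other pairs share runs of 19 to 35 bases. Genes this alike may also share reads, so the 4 values are uncertain as separate measurements.

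The Serpina3 genes form another tandem group. They encode serine protease inhibitors that acute-phase signals induce in liver and brain, and Serpina3f, Serpina3g, Serpina3h and Serpina3n are members (chromosome 12, 104214544 to 104414334). Serpina3n was among the most abundant of all, at 9.00 and 3.85 FPKM at D0 and 1992 and 1842 at D5 with NanogBiD. With NanogWT it stood at 3.31 and 1.11 FPKM at D0, 1748 and 1612 at D5 and still 348 and 358 at D12. It had the largest rise of the members under NanogWT, 8.91 (SE 0.28, adjusted p = 1.48e-14). The NanogWT rise of the other 3 was 2.86 to 3.89, and all 4 had the wave. In the same stretch Serpina3i and Serpina3m, no members, rose by 3.05 and 5.08. Serpina3j (1.02, SE 0.51, adjusted p = 0.111) and Serpina3k (0.32, SE 0.35, adjusted p = 0.495) were not called. Another such group, on chromosome 3 (92365187 to 92485881), holds the small proline-rich protein genes Sprr2f and Sprr1a, cornified envelope proteins of skin, which rose by 1.31 and 2.46 with NanogWT and fell back by 1.51 and 1.90. Between these members, Sprr2g differed by -0.24 from D0 (adjusted p = 0.645) and Sprr2k was lower than at D0 (difference -3.66, adjusted p = 9.88e-17). Paralogs such as these may share reads. Of 30 keratin and epithelial junction genes listed, 21 were tested. With NanogWT 2 of these rose and 3 fell between D0 and D3 to D7 (10.5% and 5.36% of tested genes). At D3 to D7 2 were called above D12 and 1 below it. Only Sprr1a had the wave, and the list's medians were 0.17 for the rise and -0.08 for the fall.

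Of the members with the highest scores or called at D1, Ccl8 is a monocyte-attracting chemokine, Themis a regulator of T cell receptor signalling, Icos a T cell costimulator and Cd4 a T cell coreceptor. Ccl8 was at 0.241 FPKM or less in all 4 D0 libraries and reached 218 and 204 at D5 with NanogBiD and 410 and 434 with NanogWT. At D8 it was at 109 in the NanogBiD library and 799 and 638 in those of NanogWT, and at D12 at 9.99 and 8.75 against 200 and 230. It rose by 8.59 with NanogWT (SE 0.33, adjusted p = 1.34e-13), and its fall of 0.84 was not called (SE 0.33, adjusted p = 0.0584). Themis rose by 5.17 and fell back by 3.87 with NanogWT, and Icos rose by 3.63 and fell back by 3.95. Cd4 stood at 16.1 and 19.7 FPKM at D5 with NanogBiD and at 2.57 and 1.31 with NanogWT, where its wave of 1.85 up and 1.82 down was called as well. Among 15 chemokine and cytokine genes tested, a list that holds Cxcl14 and Il33 but not Ccl8, 2 rose with NanogWT, 5 fell, 8 stood higher at D12 than at D3 to D7 and 0 had the wave, with medians of -0.24 for the rise and -1.40 for the fall. Of 15 macrophage markers listed, 13 were tested, and with NanogWT 7 fell between D0 and D3 to D7 and 1, Mrc1, rose and had the wave. The summed level of the 15 was 63.1 to 120 FPKM with NanogBiD and 64.5 to 190 with NanogWT at D0, and 9.46 to 13.8 and 18.5 to 32.6 at D5. Of these 15, 1 was at 0 in both NanogBiD D5 libraries and none in both of NanogWT, and none is a member. The part of these markers in the levels of Ccl8, Themis, Icos and Cd4 was not tested.

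Interferon-induced genes had the wave with native Nanog almost throughout. Irf7 (the factor that amplifies interferon production), Usp18 and Isg15 (protease and ubiquitin-like modifier of the same pathway) and Ifit1 (an inhibitor of viral RNA translation) are members. Isg15 stood at 32.4 and 26.8 FPKM at D5 with NanogBiD and at 58.8 and 158 with NanogWT. Its D0 libraries with NanogWT differed widely, at 10.6 and 0.335. Ifit1 stood at 12.2 and 9.07 FPKM at D5 with NanogBiD and at 81.9 and 76.8 with NanogWT, where it rose by 4.93 (SE 0.34, adjusted p = 3.52e-10) and fell by 3.71 (SE 0.34, adjusted p = 4.24e-08). Of 17 interferon response genes listed, all were tested. With NanogWT 16 rose and 15 fell back, against 10.5% and 4.01% of tested genes, and the list's medians were 3.38 up and 2.23 down. Their summed level was 28.8 to 89.8 FPKM at D0 with NanogWT, 619 to 996 at D5 and 169 to 202 at D12. With NanogBiD it was 40.6 to 57.9, 324 to 372 and 87 to 161. Both combinations carried retroviral vectors from before D0, and the part of infection in these levels was not tested.

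The interferon-stimulated response element, searched as GAAANNGAAA on both strands and added after the values were seen, was in the windows of 5 of 102 members (4.9%) and of 3.99% of all genes. The windows of Ifit1 and Isg15 each hold 2 matches, shown in capitals with 30 bases on either side.
Ifit1 (chr19:34640755-34640843, + strand): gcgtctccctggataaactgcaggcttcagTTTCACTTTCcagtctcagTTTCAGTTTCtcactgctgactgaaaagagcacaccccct
Isg15 (chr4:156200845-156200926, - strand): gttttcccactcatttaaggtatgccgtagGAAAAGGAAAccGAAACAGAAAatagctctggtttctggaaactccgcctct
The Irf7 window held no match, and Usp18 had no window.

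Aldh1a3 and Aldh1a2 both make retinoic acid from retinal, but only Aldh1a3 was called as a wave with NanogWT. Aldh1a3 was at 29.3 and 25.4 FPKM at D5 with NanogBiD and 10.9 and 12.9 with NanogWT, and it rose and fell back there by 3.70 and 3.00. Aldh1a2 was at 44.9 and 36.9 FPKM at D5 with NanogBiD and at 4.18 and 4.85 with NanogWT, where it stood higher at D8 (26.4 and 16.2). Of 13 retinoid genes tested, 4 rose with NanogWT and 2 fell (10.5% and 5.36% of tested genes). At D3 to D7 1 was called above D12 and 4 below it, and 1, Aldh1a3, had the wave (3.18% of tested genes), with medians of 0.44 for the rise and -0.40 for the fall. Hpgd, which inactivates prostaglandins, rose by 4.43 with NanogWT (SE 0.29) and its fall of 1.04 lay at the limit (SE 0.29, adjusted p = 0.00745; 0.80, adjusted p = 0.153, without NanogWT D12 replicate 1, and under the limit without D3 replicate 1, D5 replicate 1 or D7 replicate 2). Atp6v0d2, a proton pump subunit of osteoclasts, was at 22.5 and 30.3 FPKM at D7 with NanogWT and at 18.5 and 29.5 with NanogBiD, and it rose and fell back by 4.36 and 3.93 with NanogWT.

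The 26 gene lists drawn up for the study held 13 members in 6 lists. Beside those of the neuropeptide, interferon and retinoid lists, these were Sprr1a, Slc7a11, Il33 and Cxcl14 (a chemokine). Lists without a member included those of pluripotency, trophoblast, primitive endoderm, germline, fibroblast, hypoxia and proliferation genes.

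The 41 members that rose without a called fall included a block of neighbours. On chromosome 15, between 54250619 and 54753762, lie Tnfrsf11b (osteoprotegerin, the decoy receptor of RANKL), Colec10 (a collectin), Mal2 (a transcytosis protein) and Ccn3 (a matricellular growth regulator, also listed as Nov). They are members all, and no other gene tested lies in the stretch. Ccn3 was at 4.31 and 4.86 FPKM at D0, 606 and 545 at D5 and 9.40 and 14.0 at D12 with NanogBiD. With NanogWT it was at 4.20 and 5.10 at D0, 162 and 139 at D5 and 119 and 194 at D12. It rose by 4.74 (SE 0.24, adjusted p = 7.74e-12) and its level at D12 did not differ from that of D3 to D7 beyond the spread (difference -0.03, SE 0.24). Tnfrsf11b went from 24.1 and 21.0 FPKM at D0 to 205 and 194 at D12 with NanogWT, and from 8.47 and 9.66 to 5.35 and 5.67 with NanogBiD. Mal2 went from 0.0487 and 0.388 to 17.1 and 18.6 with NanogWT. Colec10, with the lowest NanogWT score of all members, was at 8.19 and 6.66 FPKM at D5, 20.4 and 14.4 at D10 and 13.4 and 15.6 at D12. It was the 1 member called higher at D12 than at D3 to D7 (D3 to D7 minus D12 -1.15, SE 0.18, adjusted p = 4.63e-05).

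Others of this kind were Spon1 (an extracellular matrix protein), Nt5e (the ectonucleotidase CD73), Lgmn (a lysosomal protease) and Angptl4 (an inhibitor of lipoprotein lipase). Spon1 was at 0.110 and 0.133 FPKM at D0 and 27.7 and 39.6 at D12 with NanogWT, and at 0.790 and 1.65 at D12 with NanogBiD. Nt5e was at 60.1 and 64.5 FPKM at D12 with NanogWT and at 3.51 and 3.88 with NanogBiD. Lgmn was at 235 and 209 against 32.4 and 27.1 FPKM. The low D12 level with NanogBiD is part of the rule that chose these genes.

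Of the 150, 8 members were not called as rising with NanogWT: Gm40050, Gm42113, Serpina10, Gm34312, 1700024G13Rik, Tln2, Cpne4 and Prss12. These names follow from the count, not from the rule for named genes, except Gm42113 and Serpina10. Gm34312, 1700024G13Rik, Cpne4 and Prss12 passed the filter through NanogBiD only, which left little room for a called rise with NanogWT. The NanogBiD levels at D5 are part of the rule that chose all 8. Gm42113 was at 13.0 and 9.73 FPKM at D5 with NanogBiD and at 0 in both D5 libraries of NanogWT. It overlaps U90926, so that its value may hold reads of that gene. The protease gene Prss12 was at 10.2 and 8.19 FPKM at D5 with NanogBiD and at 0.295 and 0.299 with NanogWT. Serpina10 was at 6.81 and 7.64 FPKM at D5 with NanogBiD and at 0.978 and 1.51 with NanogWT, and its NanogWT rise of 0.99 (SE 0.17, adjusted p = 0.000103) fell short of the fold limit.

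At D1, 94 members with NanogBiD and 87 with NanogWT already stood at least 1 above D0. The score did not use D1, but it used D0 of NanogBiD, so the NanogBiD count is a description. Neither count was made over all genes. Between the combinations most members did not differ, but the called shares were above those of all tested genes. NanogBiD was called above NanogWT in 7 members (4.67%, against 0.368% of tested genes) and below it in 10 (6.67%, against 0.962%), with a median difference of -0.01 over the members. Il33 stood at 8.84 and 9.93 FPKM with NanogBiD and 2.96 and 3.66 with NanogWT (difference 1.27, SE 0.22, adjusted p = 0.00187). Icos was at 42.5 and 34.3 against 20.9 and 11.7 FPKM, and Gm42113 at 14.4 and 12.0 against 3.78 and 3.52. Mgat4a (a glycosyltransferase), Cd4, Tecta (a protein of the tectorial membrane) and Serpina3n were the other 4. Lower with NanogBiD was Vgf, the precursor of secreted neuropeptides, at 19.8 and 12.1 against 83.0 and 59.2 FPKM (difference -2.11, SE 0.28, adjusted p = 0.000145). Gda (guanine deaminase) was at 4.95 and 5.33 against 22.4 and 16.6 FPKM, and Tnfrsf11b at 13.5 and 15.2 against 49.6 and 42.3. Tmc3, Ccl8, Rgs4, Hpgd and Mal2 were also lower. Vgf already lay lower at D0, at 0.233 and 0.298 against 3.88 and 1.86 FPKM, and so did Tnfrsf11b. The D1 counts rest on few libraries, and 1 library decides which direction holds more members. Without NanogBiD D1 replicate 1 there were 2 higher and 8 lower (10 in all), and without its replicate 2 there were 13 and 8. Without NanogWT D1 replicate 1 there were 5 and 6 (11 in all), and without its replicate 2 there were 3 and 15. Without NanogBiD D1 replicate 1 the calls of Serpina3n (adjusted p = 0.34), Cd4 (0.346), Tecta (0.135), Icos (0.132), Mgat4a (0.124), Hpgd (0.203) and Rgs4 (0.058) were lost. That of Ccl8 was lost without NanogBiD D1 replicate 2 (0.416) or NanogWT D1 replicate 1 (0.428).

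At D10, later than D3 to D7, the difference was broad and mostly went 1 way. NanogBiD was called below NanogWT in 74 members (49.3%, against 12.3% of tested genes) and above it in 3 (2.0%, against 15.4%). The median difference was -0.96 over the members and 0.10 over all genes. The members had been chosen for a low D12 level with NanogBiD, 2 days later, which the D10 libraries share in time though not in data. Of the 41 members that rose without a called fall, 35 were lower with NanogBiD at D10, and of the 101 with a called wave, 38 were. The 41 were set apart by a D12 level with NanogWT that was not called below D3 to D7. The choice of members and this grouping both use D12, so the split is a description. Vgf stood at 0.964 and 1.02 FPKM with NanogBiD and 77.0 and 63.5 with NanogWT (difference -5.15, SE 0.28, adjusted p = 3.22e-11). Tnfrsf11b was at 7.10 and 6.99 against 257 and 200 FPKM, and Gda at 0.672 and 1.50 against 59.2 and 46.3. Angptl4, Mal2, Ccl8, Nt5e and Tmc3 followed, with differences of -4.19 to -3.49. In these 8 both NanogBiD libraries lay below both of NanogWT, as in 35.1% of tested genes.

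Npy, Cd4 and Mapk13 (the p38 delta kinase) were the 3 members higher with NanogBiD at D10. Npy was at 8.57 and 8.49 FPKM against 1.53 and 1.63 (difference 1.89, SE 0.37, adjusted p = 0.000215), and Cd4 at 3.98 and 2.56 against 0.115 and 0.156. Mapk13 was at 5.75 and 5.22 against 2.18 and 1.45 FPKM (difference 1.22, SE 0.38, adjusted p = 0.0109; 0.0565 without NanogBiD D10 replicate 1 and 0.0818 without NanogWT D10 replicate 2). The NanogWT libraries of D10 were among the deeper ones. Of the 10 members lower at D1, 9 were lower at D10 too.

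**Figure D4:**
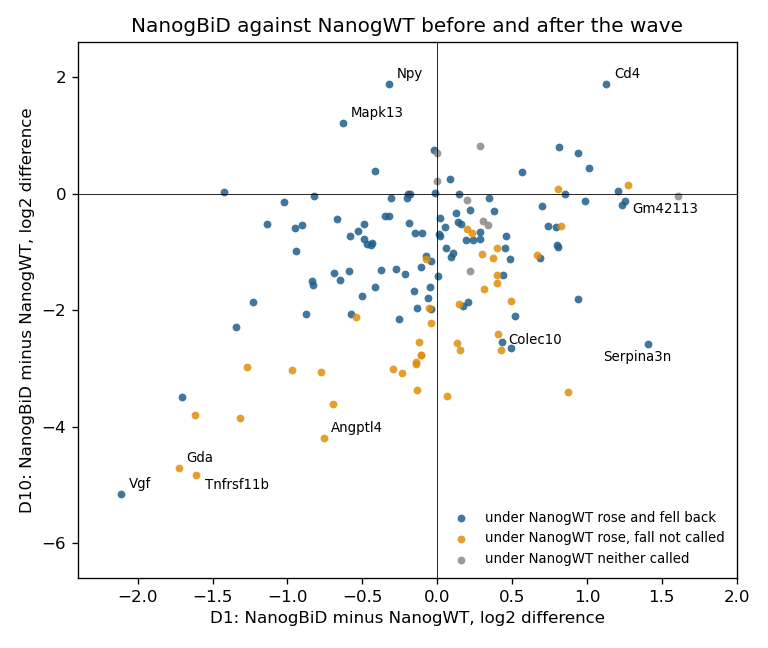
Log2 difference between NanogBiD and NanogWT of each member at D1 (x axis) and D10 (y axis), coloured by its call under NanogWT. At D1 the points lie on both sides of 0 with a median of -0.01, and at D10 most lie below it, with Vgf, Tnfrsf11b and Gda lowest.

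Most members were low or absent in iPSC, as were most genes of the iPSC table. Of the 142 members in it, 18 were listed at 0 in all 12 libraries and 90 stayed under 1 FPKM in all of them. The filter of at least 1 FPKM in 2 iPSC libraries was passed by 45 members. It was passed by 12456 of all 35976 genes, a similar share. Many of those genes had not passed the filter of the time course, as all members had, so these shares are not of like sets. In the mES library the median level was 0.149 log2(FPKM + 1) over the members and 2.65 over the genes tested in the time course. Fgl2 was at 0.192 FPKM in the median NanogBiD library (0.102 to 0.511) and 0.290 in the median NanogWT library (0 to 0.380). Cck was at medians of 0.305 (0 to 2.65) and 0.334 (0 to 7.68) and Tac1 at 0 in both medians. These members were low in both sets of lines. Between NanogBiD and NanogWT iPSC, limma called 0 of the 45 members and 0 of 12456 genes (0.0%), with 1 member (Elovl7, an elongase of fatty acids, named from this count) and 217 genes at an unadjusted p under 0.05.

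Against MEF, whose values here are from the iPSC table, 7 of the 45 tested members were higher in iPSC (15.6%, against 23.4% of tested genes) and 9 lower (against 14.6% of tested genes), shares that do not stand out from those of all genes. Urah, an enzyme of urate breakdown, was at 0 in both MEF libraries, 8.26 to 10.3 FPKM in NanogBiD iPSC and 6.72 to 14.4 in NanogWT iPSC. Epas1 (HIF-2α) was at 1.37 and 2.22 FPKM in MEF and at medians of 16.2 (11.2 to 36.2) and 18.9 (10.5 to 25.6). Nptx2, Irak3, Pim2, Npy and Ankrd33b were the other 5. Lower were Tnfrsf11b, at 23.8 and 29.1 FPKM in MEF and medians of 0.0950 (0 to 4.31) and 0.274 (0 to 1.77) in iPSC, and Tgfbi (an adhesion protein induced by TGF-β), Rgs4, Cxcl14, Irgm1, Fzd6, Car13, Fam124a and Stat5a. Members highest in the mES library were Lgmn (22.3 FPKM), Nptx2 (16.4), Wfs1 (13.5), Angptl4 (9.30) and Urah (8.34), each below its NanogBiD level at D5.

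**Figure D5:**
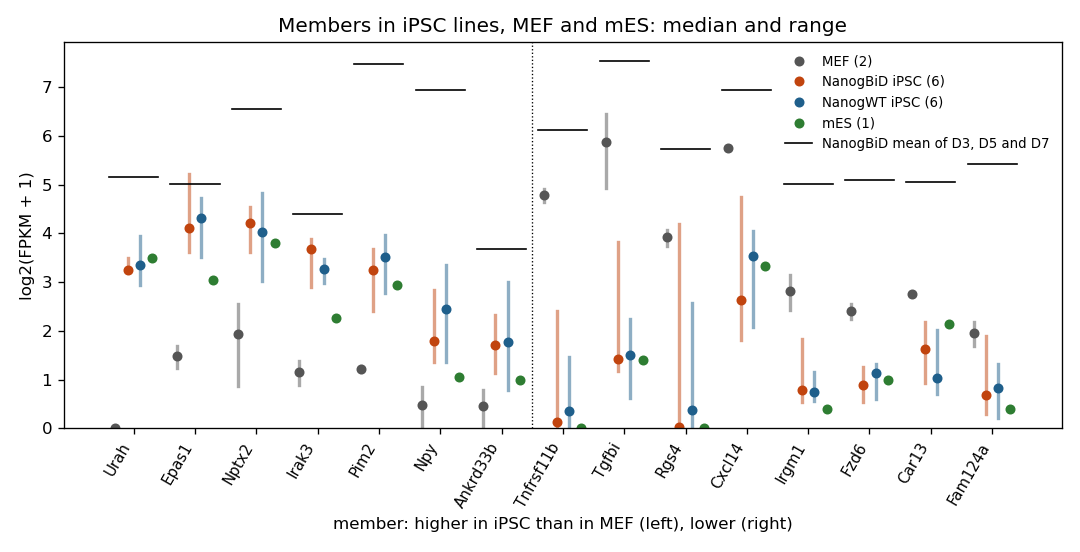
Level in log2(FPKM + 1) of 15 members called between iPSC and MEF: points are medians and bars the range over the libraries of a group (numbers in the legend), and black lines the NanogBiD mean of D3, D5 and D7. Urah to Ankrd33b on the left lie above MEF in iPSC, Tnfrsf11b to Fam124a on the right below it.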

How the data were processed

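RNA-seq libraries of the time course, MEF, mES and iPSC were grouped by their labels. Per the study's methods and processing notes, the authors trimmed reads with Trim Galore 0.6.4, aligned them to mm10 with HISAT2 2.2.1 and quantified them with StringTie 2.2.1. The authors deposited FPKM values, per gene (37108 rows) and, for iPSC, MEF and mES, per transcript. Replicates were kept apart. The annotation and any use of strand are not given in the sources used here. The authors' own caller, GFOLD, needs mapped reads and was not used.

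Values were analysed as log2(FPKM + 1), so that differences understate the change of low genes. Count models were not applied, since FPKM is a scaled unit. The 16842 genes at 1 FPKM or above in 2 or more time-course libraries entered 1 limma model (limma 3.58.1, R 4.3.3; eBayes with trend) with a mean for each of 16 groups. All adjusted p-values are from limma, two-sided, Benjamini-Hochberg over all tested genes, and calls need both an adjusted p below 0.05 and a change of 1 or more on the log2 scale. iPSC transcripts were summed per gene (35976; 12456 tested), with a mean per combination and line. The model was tested on simulated data. No unmapped column was used (0 such columns). Figures and tables were made with matplotlib 3.10.9, scipy 1.17.1, pandas 2.3.3 and numpy 2.4.6 in Python 3.11.15. Promoter sequences and coordinates are those of RefSeq on GRCm38.p6.

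Named are the 20 highest scores, the 8 highest and 8 lowest NanogWT scores, up to 8 members called per direction at D1, D10 and in iPSC against MEF, members of the gene lists (up to 5 a list), the 5 highest in mES, and 3 genes on either side of the score limit. Names outside this rule were chosen after their values were seen. The members and the gene lists were chosen with earlier results of these data known, and the result of 1 list is not reported here. Alternatives were a pseudocount of 0.1, no filter, TPM, quantile normalization, no fold limit, the replicate number as a block, a fit to NanogWT alone, lists of 100 and 300 genes, other days for the fall and leaving out each replicate. Added after the data were seen were the distinct genes alone, a fall on all 3 late days and the D10 difference relative to the median.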

Additional observations from a re-analysis of the deposited data

Results flagged for a closer look

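A gap rule (Dixon, 95%) was applied to 32 groups of 6 iPSC libraries, the mean member level and the 15 members named between iPSC and MEF in each combination, and it picked 5. Chance alone picks about 1 in 20 groups. In NanogBiD iPSC the mean member level of 1 library (iPSC1, number 9) was 0.894 log2(FPKM + 1) against 0.574 to 0.693 in the other 5, a gap of 0.628 of the range. The highest NanogBiD value of Tnfrsf11b was 4.31 FPKM against a median of 0.0950 (gap 0.878), that of Rgs4 17.3 against 0.0260 (gap 0.798) and that of Tgfbi 13.1 against 1.67 (gap 0.816), all in that same library. All 3 genes were called lower in iPSC than in MEF over all lines, but Rgs4 in this library stood above both MEF libraries (12.4 and 15.8 FPKM). In NanogWT iPSC, the lowest Cxcl14 value, 3.23 FPKM (iPSC2, number 6), stood apart from a median of 10.6 (gap 0.703). The cause was not tested. Without the NanogBiD library, 17 members instead of 16 were called between iPSC and MEF.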

How the results depend on the processing

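Counts of members are given with the NanogWT rise first, then the fall, the wave, the D1 and the D10 differences (142, 101, 101, 17 and 77). A pseudocount of 0.1 gave 147, 104, 103, 23 and 99, TPM 147, 103, 103, 21 and 93, quantile normalization 141, 103, 103, 15 and 79, no filter 142, 101, 101, 13 and 76, and no fold limit 147, 117, 117, 25 and 99. D12 above D0 was called in 91 members, 114 with a pseudocount of 0.1, 111 with TPM, 74 with quantile normalization, 89 without a filter and 106 without a fold limit. The distinct genes alone gave 135, 96, 96, 17 and 74. Relative to the median of all genes, D10 gave 80. The median rise of all genes was 0.11, 0.21 with TPM and -0.04 with quantile normalization. Among the 300 highest scores 274 rose, 160 fell, 160 had the wave and 168 stood higher at D12 than at D0. Measured against D8, 60 members fell (469 of all tested genes did) and 60 had the wave. On D8, D10 and D12 alike 59 members had fallen, a count not made over all genes. Between iPSC and MEF 16 members were called, but 30 with TPM, 32 without a filter (7 higher and 25 lower), 25 with a pseudocount of 0.1 and 26 without a fold limit. Averaging the libraries 1# and 1#-2 left the count between iPSC and MEF at 16 and that between the combinations at 0. Leaving out 1 replicate gave 141 to 143 for the rise, 98 to 100 for the fall, 98 to 101 for the wave, 85 to 90 for D12 above D0, 10 to 21 at D1, 70 to 80 at D10, 13 to 18 between iPSC and MEF and 0 to 0 between the iPSC combinations. The replicate block gave 142, 101, 101, 18 and 77. The replicate numbers showed no steady pairing of the samples. The r of deviations was -0.065 to 0.39 between combinations, and -0.42 (D5) to 0.42 (D12) between NanogWT D0 and its later days. For iPSC, no paired analysis was possible because the labels carry clone numbers. Of 1877 values of single called genes under these alternatives 1827 kept their call, 50 lost it and 0 changed sign, in 18 genes, mostly at D1. Depth, medium and day cannot be told apart after D7, and absolute depth is unknown.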

Other observations

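A gene list without members also had a wave with NanogWT in part. Of 18 genes of FGF and ERK feedback, 7 rose and 1 fell between D0 and D3 to D7 (10.5% and 5.36% of tested genes), 9 stood lower at D12 than at D3 to D7 and 3 higher (4.01% and 7.29%), and 5 had the wave (3.18%; Etv4, Fgfbp1, Spred1, Spred3 and Spry4), with medians of 0.80 for the rise and 0.97 for the fall. Tnfsf11, the gene of RANKL, is a member like its decoy receptor Tnfrsf11b, but it fell back with NanogWT, from 17.6 and 19.1 FPKM at D5 to 4.30 and 5.02 at D12. These genes were picked after their values were seen.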
